A study of Homo sapiens with 32 samples.

Results

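The response of WT cells to LPS was described over 8 of the 32 libraries of the series. THP-1 cells are an established line of monocytic leukemia cells of human origin. The WT line was not parental THP-1: it was made from ACLY knockout cells by lentiviral transduction with wild type ACLY behind an EF promoter, followed by puromycin selection, so every library described here shares the knockout, the vector and the selection. WT cells were left untreated (WT, 4 libraries) or received 100 ng/ml LPS for 3 h (WT LPS, 4 libraries), the members being chosen by genotype and treatment label alone. The remaining 24 libraries belong to KO, H760A (HA) and S455A (SA) cells, 8 for each line. The labels name 1 WT line and do not say that the 4 libraries of a group came from separate cultures, so p-values measure the spread between these libraries, which may be technical. Of 60107 genes, 12273 had a mean normalised read count of at least 10 over the 8 WT libraries and were tested.

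LPS, a glycolipid of the Gram-negative outer membrane, is bound by CD14 and presented to the receptor pair TLR4 and MD-2. One adaptor branch, through MYD88, leads to the transcription factors NF-κB and AP-1, and to chemokines, cytokines and inhibitors that act back on the pathway. The other, through TRIF, activates IRF3 and interferon β, whose receptor drives the interferon-stimulated genes through JAK kinases and STAT factors.

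Between 6504099 and 12417589 reads per library fell on genes (median 9885666). Mitochondrial genes took 3.42 to 6.62% of the reads in WT and 3.51 to 6.11% in WT LPS. All 12 monocyte markers looked at had a mean count of at least 10, among them CD14, CSF1R, LYZ and CD33. The summed count of the monocyte markers was 15003 to 16150.1 in WT and 13238 to 15848 in WT LPS. Of 7 T cell markers, CD3D, CD3E, CD3G and LCK had no read in the 8 libraries. Replicate 3 stood apart in both groups: the chi-square per degree of freedom between it and the other libraries of its group was 46.9 to 75.8, against 4.74 to 22.2 between the others. Same-numbered WT and WT LPS libraries deviated from their group means together, so the replicate number was also fitted as a block.

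LPS raised a small set of chemokine and interferon-stimulated genes in WT cells. Without the block, 14 genes passed an adjusted p of 0.01 (limma, Benjamini-Hochberg), which is 0.114% of the genes tested. All 14 were higher with LPS, by 0.97 to 4.64 on the log2 scale. They included CCL4, CCL4L2, CXCL11, CXCL10, IFIT2, IFIT3, IFIT1, SLAMF7, CCL3L1, OASL, CCL3, GBP5 and IRF1. No gene was called lower, and 341 genes had an unadjusted p below 0.05, 115 of them lower. The 341 are less than a share of 0.05 of the genes tested, the average where no gene changes. With the replicate block, 123 genes were called, 114 higher and 9 lower, or 0.929% and 0.0733% of the genes tested, and 1166 genes had an unadjusted p below 0.05. The 14 genes were among the 123. Leaving out a single library gave 7 to 20 calls, and IRF1 lost its call without any 1 of the 8 libraries, while CCL4, CCL4L2, IFIT1, IFIT2, IFIT3, CCL3L1 and OASL kept theirs without each. Without both replicate 3 libraries, 57 genes were called higher and 1 lower, and 103 and 7 when the block was kept. Log2 fold changes are differences of log2(normalised count + 1) and understate the change of genes with low counts. In what follows, a gene that rose or fell without further remark was called in both fits, and one that did so with the block was called with the replicate block only.

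The 4 LPS libraries lay above the 4 unstimulated ones for all 14 genes, and for 90 of the 114 called higher with the block. Over all genes tested, this was so for 200 genes, or 1.63%, and the opposite for 107, or 0.872%. The 114 genes took 0.643 to 0.694% of all reads in WT and 1.00 to 1.12% in WT LPS. Their median log2 fold change was 0.88, against -0.01 for all genes, and 47 reached a log2 fold change of 1. The median log2 fold change of the genes called higher with the block was 4.19 for the 4 with an unstimulated mean below 10, 1.47 for the 33 between 10 and 100, 0.68 for the 60 between 100 and 1000, and 0.47 for the 17 at 1000 or more, which describes the called genes and depends on what could be called at each level. Of the 120 called genes with a position in GENCODE release 44, 119 are protein coding and 1, NEAT1, is a long non-coding RNA. Of the 12173 tested genes with a position, 11029 are protein coding and 748 are long non-coding RNAs, so most genes tested were coding too.

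**Figure D1:**
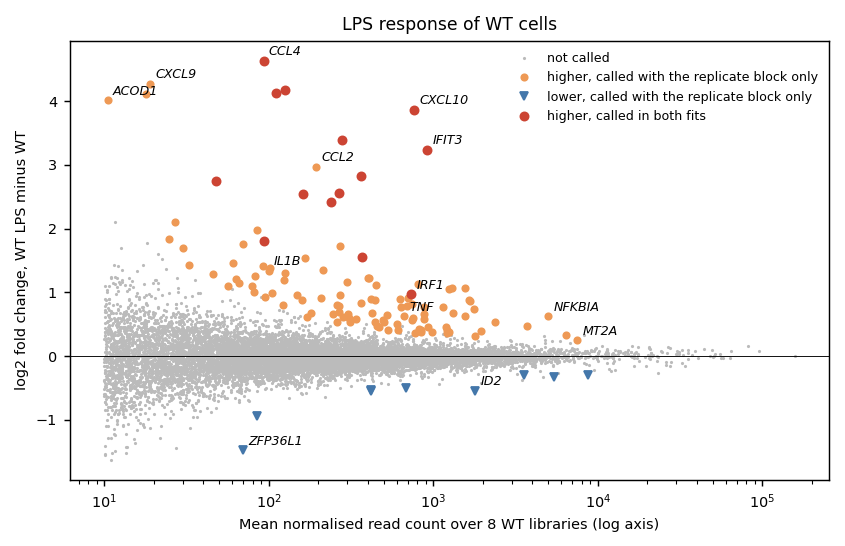
Each point is 1 of the 12273 genes tested, with its mean normalised read count over the 8 WT libraries on the x axis (log scale) and its log2 fold change, WT LPS minus WT, on the y axis. The 14 genes called in both fits (red) lie at 0.97 or more, those called higher with the replicate block only (orange, 100 genes) reach down to 0.25, and the 9 called lower with the block (blue) lie between -1.48 and -0.29.

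The CC chemokines, which attract monocytes and lymphocytes, held the gene with the largest fold on the log2(normalised count + 1) scale, on which low counts such as those of ACOD1, given further on, are understated. Of 16 listed, 8 were tested, 4 rose and 3 more rose with the block, and the median log2 fold change of the tested members was 2.77. CCL4, also known as MIP-1β (ENSG00000275302, chromosome 17, 36103827 to 36105621 on the plus strand of GRCh38), had normalised counts of 2.71, 6.33, 9.57 and 8.28 in WT and 183, 216, 153 and 166 in WT LPS. The groups were far apart, and the log2 fold change was 4.64 ± 0.33 (SE; limma adjusted p = 2.46e-04). CCL3, or MIP-1α, rose from 44.8, 68.1, 112 and 81.1 to 336, 316, 613 and 355 (2.41 ± 0.30, adjusted p = 0.00947), with replicate 3 highest in both groups. CCL4L2 and CCL3L1 rose by 4.18 ± 0.33 and 2.56 ± 0.20. These 2 genes are near-identical copies of CCL4 and CCL3, so how the reads were divided between a gene and its copy is uncertain. The 4 genes lie within 125 kb on chromosome 17, from 36088256 to 36212878.

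CCL2, or MCP-1, the main attractant of CCR2-positive monocytes, had 42.1, 40.4, 10.6 and 48.01 normalised counts in WT and 509, 596, 47.2 and 262 in WT LPS. Replicate 3 was lowest in both groups, and its LPS value lay below the highest unstimulated value, so the groups overlapped. The log2 fold change was 2.97 ± 0.76 without the block (limma adjusted p = 0.449) and 2.97 ± 0.23 with it (2.39e-08). CCL8, or MCP-2, whose gene lies in the same 66.1 kb of chromosome 17 as CCL2, had 0, 0, 4.25 and 1.66 in WT and 17.01, 45, 31.9 and 44.2 in WT LPS. It rose with the block (4.11 ± 0.56, limma adjusted p = 8.59e-05). CCL5, or RANTES, started high, at 1063 ± 147 (SD, n = 4), and stood at 1364 ± 120 with LPS. Its log2 fold change of 0.37 ± 0.07 was called with the block (limma adjusted p = 0.00814). CCL23 was tested and not called (0.04), and the other 8, among them CCL7, CCL20 and CCL22, had means below 10.

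Among the CXC chemokines, the 3 ligands of CXCR3, a receptor of activated T and NK cells, were the members called. CXCL10 had 100.4, 99.0, 45.7 and 165 normalised counts in WT and 1893, 1623, 869 and 1326 in WT LPS. Replicate 3 was again lowest in both groups, without overlap between the groups, and the log2 fold change was 3.87 ± 0.36 (limma adjusted p = 0.00155). CXCL11 rose from 5.43, 10.3, 8.51 and 29 to 213, 193, 213 and 216 (4.13 ± 0.40, adjusted p = 0.00201), the 4 LPS values lying close together. CXCL9 had no read in 3 of the unstimulated libraries and 10.8 in replicate 4, and 28.4, 40.1, 42.8 and 29.99 with LPS. It rose with the block (4.27 ± 0.63, limma adjusted p = 2.50e-04). CXCL8, the neutrophil attractant also known as IL-8, had a mean of 8.84 in WT and 14 in WT LPS, with overlapping libraries, and was not called (0.59). CXCL1, CXCL2, CXCL3, CXCL5 and CXCL6 had means below 10. CXCL9, CXCL10 and CXCL11 lie within 40.1 kb of each other on chromosome 4, from 76001275 to 76041415.

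The 250 bases before the start of CXCL10 and CXCL11 are shown because these neighbours rose together and their promoters carry elements that the pathway is known to act through. Sequences were read from the RefSeq promoter table (GRCh38) and are written 5′ to 3′ on the strand of the gene. Capitals mark every match, on either strand, to an interferon-stimulated response element, searched as 2 GAAA half-sites separated by 2 bases, or to an NF-κB element, searched as GGG and TTCC separated by 3 bases. In CXCL10 the first block of capitals matches the interferon pattern and the second the NF-κB pattern, and in CXCL11 the block matches the NF-κB pattern. Only these spacings were searched, so other forms of either element in these windows would stay in lower case.
CXCL10, chr4:76023498-76023747, minus strand: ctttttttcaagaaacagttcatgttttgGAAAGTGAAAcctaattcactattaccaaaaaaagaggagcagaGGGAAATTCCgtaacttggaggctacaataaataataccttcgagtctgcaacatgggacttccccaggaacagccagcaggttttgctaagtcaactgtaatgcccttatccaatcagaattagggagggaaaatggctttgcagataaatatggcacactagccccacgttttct
CXCL11, chr4:76036071-76036320, minus strand: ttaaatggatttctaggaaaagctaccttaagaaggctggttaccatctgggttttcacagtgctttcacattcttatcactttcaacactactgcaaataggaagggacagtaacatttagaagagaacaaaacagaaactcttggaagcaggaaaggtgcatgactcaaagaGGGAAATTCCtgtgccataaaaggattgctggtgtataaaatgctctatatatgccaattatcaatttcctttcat
A match is a description of the letters and not of a bound factor.

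**Figure D2:**
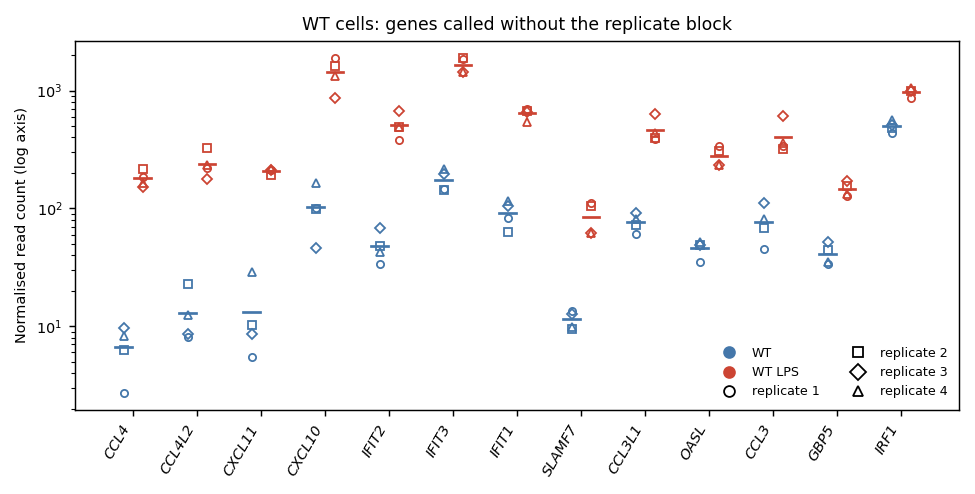
Normalised read counts (log axis) of 13 of the 14 genes called without the replicate block in the 4 WT (blue) and 4 WT LPS (red) libraries, the symbol giving the replicate number and the bar the group mean. For each of these genes the 4 LPS libraries lie above the 4 unstimulated ones.

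The interferon-stimulated genes were the longest of the 30 lists and held the largest number of called genes, though a smaller share than the chemokine lists. Of 60 listed, 58 were tested. Of these, 5 rose and 26 more rose with the block, 31 in all or 53.4%, and no member was called lower. The median log2 fold change was 0.63, and 54 of the 58 had a value above 0. Without both replicate 3 libraries, 33 were called higher with the block. IFIT2, IFIT3 and IFIT1 encode cytosolic proteins that bind viral RNA. IFIT2 had 33.9, 47.5, 68.1 and 42.2 normalised counts in WT and 383, 490.1, 668 and 487 in WT LPS. IFIT3 had 147, 142, 196 and 216 in WT and 1836, 1906, 1429 and 1445 in WT LPS. IFIT1 had 82.8, 63.3, 104 and 116 in WT and 702, 664, 651 and 539.8 in WT LPS. The LPS libraries of each were several-fold above the unstimulated ones, and the log2 fold changes were 3.39 ± 0.24, 3.24 ± 0.17 and 2.82 ± 0.19 (limma adjusted p = 2.46e-04, 5.69e-05 and 2.46e-04). IFIT5, the remaining member of the cluster that was tested, rose with the block by 1.98 ± 0.25 (limma adjusted p = 3.58e-05). The 4 genes lie on chromosome 10 between 89283694 and 89421605, in a stretch that also holds LIPA, which was tested and not called.

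The 250 bases before IFIT1 and the first listed start of IFIT3 are shown because both hold 2 interferon elements, in the same search and with the same capitals as above, here on the opposite strand, where the half-sites read TTTC. The windows read for CCL3 and IRF1, also called in both fits, held no match to the interferon or the NF-κB pattern as searched. Other forms of either element were not searched, so this does not show that they are absent.
IFIT1, chr10:89392373-89392622, plus strand: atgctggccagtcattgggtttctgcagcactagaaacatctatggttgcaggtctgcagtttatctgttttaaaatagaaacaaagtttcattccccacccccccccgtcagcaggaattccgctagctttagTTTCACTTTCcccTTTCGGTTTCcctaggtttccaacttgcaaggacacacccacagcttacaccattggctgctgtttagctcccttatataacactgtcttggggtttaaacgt
IFIT3, chr10:89327747-89327996, plus strand: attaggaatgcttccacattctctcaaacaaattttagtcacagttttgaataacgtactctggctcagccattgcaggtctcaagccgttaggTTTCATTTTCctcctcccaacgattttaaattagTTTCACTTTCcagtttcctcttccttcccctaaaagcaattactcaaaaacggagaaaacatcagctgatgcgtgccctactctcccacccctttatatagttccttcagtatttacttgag
Over the 9113 tested genes with a promoter in the table, 3.37% had the interferon element in the 250 bases before a listed start and 8.89% the NF-κB element. Among the 89 of the 114 genes called higher with the block that had a promoter in the table, 22 (24.7%) had the interferon element and 21 (23.6%) the NF-κB element. Among those on the interferon-stimulated list, the interferon element was found in 15 of 24 called genes (62.5%) and in 12 of 22 genes that were not called (54.5%). Among the called genes outside that list, 7 of 65 (10.8%) had it, and 17 of 65 (26.2%) had the NF-κB element. TGANTCA, the AP-1 element, was found in 12.4% of the 89 and 5.64% of all. The STAT element, searched as TTC and GAA separated by 3 bases, was found in 14.6% and 7.48%, and TATAAA, the TATA box, which belongs to no pathway, in 29.2% and 7.65%. Matches of different elements may overlap, and forms of an element that depart from the pattern searched were not counted. Over the 35116 windows of the table, whether or not the gene was tested, the shares were 3.02% for the interferon, 5.67% for the NF-κB, 6.57% for the AP-1 and 6.57% for the STAT element, and 10.7% for the TATA box. A gene with several listed starts was counted if any of them had the match.

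Other genes of the list encode antiviral effectors. OASL, a catalytically inactive relative of the oligoadenylate synthetases, had 35.3, 49.1, 48.9 and 52.1 normalised counts in WT and 336, 306, 233 and 232 in WT LPS. It rose by 2.55 ± 0.19 (limma adjusted p = 3.05e-04). GBP5, a guanylate-binding protein, rose by 1.81 ± 0.20, from 33.9, 44.3, 52.1 and 34.8 to 126, 154, 170.3 and 133 (limma adjusted p = 0.00394). MX1, a dynamin-like GTPase that blocks viral ribonucleoproteins, stood at 789.9, 759, 1403 and 1098 in WT and 1701, 1872, 2595 and 2194 in WT LPS. The order of the libraries was nearly the same in both groups, and MX1 rose with the block (1.07 ± 0.07, limma adjusted p = 2.85e-09; 0.118 without it). ISG15, a ubiquitin-like modifier, rose with the block by 1.05 ± 0.08, and USP18, which removes it from proteins, by 1.3 ± 0.17. IFI44 stood at 103 ± 27 in WT and 196 ± 11.7 in WT LPS and rose with the block (0.96 ± 0.14, limma adjusted p = 3.62e-04). RSAD2 (1.41), CMPK2 (1.12), OAS1 (0.80), OAS2 (0.81) and MX2 (0.78) rose with the block. GBP1 had 17.6, 16.6, 17 and 35.6 in WT and 38.3, 47.5, 64.8 and 45.7 in WT LPS. Its libraries did not overlap, but it was not called in either fit (1.19 ± 0.30, limma adjusted p = 0.440 without and 0.0361 with the block). EPSTI1, at 187 and 252, was not called either (0.43).

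Among sensors and transcription factors of the interferon arm, some genes rose. DDX58, the gene of the RNA sensor RIG-I, rose with the block from 85.0 ± 20.9 to 247 ± 44.3 (SD, n = 4; log2 fold change 1.54 ± 0.14), and IFIH1, the gene of MDA5, by 1.23 ± 0.09. IRF1, a transcription factor induced by both NF-κB and interferon signalling, was the member of the list of interferons, receptors, JAKs, STATs and IRFs called in both fits. It had 436, 484, 512 and 559.6 normalised counts in WT and 859, 990.1, 991 and 1056 in WT LPS (0.97 ± 0.12, limma adjusted p = 0.00947). This was the smallest fold of the 14 and went with a small spread in both groups. IRF7 (0.92 ± 0.12), with replicate 3 lowest in both groups, rose with the block. In all, 3 of 19 tested members were called and the median was 0.07. IRF9 (1.61) and STAT2 (0.59) were not called, with limma adjusted p of 0.0327 and 0.0244 with the block. IFNB1, the gene of interferon β, had no read in 7 libraries and 2 reads in WT LPS replicate 2. IFNL1 had 6, 1 and 5 reads in WT LPS replicates 2, 3 and 4 and none in the other 5 libraries.

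The NF-κB subunits and regulators moved by small steps on high levels. Of 23 listed, 21 were tested, none was called without the block, and 9 rose with it, with a median of 0.31 over the list. NFKBIA, the inhibitor IκBα and itself an NF-κB target, had 4191, 4393, 3158 and 3889 normalised counts in WT and 6993, 6744, 4527 and 6066 in WT LPS. It gained more counts than any other called gene, 2175 on average, and rose with the block (0.63 ± 0.06, limma adjusted p = 1.92e-07). TNFAIP3, the ubiquitin-editing inhibitor A20, rose with the block from 489.8 to 912 (0.91 ± 0.08) and its partner TNIP1 from 1172 to 2138 (0.88 ± 0.07). NFKBIZ (0.88), NFKB1 (0.57), IKBKE (0.53), BCL3 (0.46), NFKBIE (0.42) and RELB (0.40) rose with the block. The subunits NFKB2 (0.38), REL (0.26) and RELA (0.04) were not called.

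Of 26 cytokines, 11 were tested, the other 15 having means below 10, and 4 rose with the block. TNF had 489, 589, 544 and 473 normalised counts in WT and 781, 826, 917 and 710.0 in WT LPS. It was thus well expressed without LPS and rose with the block by 0.62 ± 0.08 (limma adjusted p = 3.53e-05; 0.118 without it). IL1B had 43.4, 59.4, 40.4 and 64.6 in WT and 198, 220.1, 57.1 and 115 in WT LPS, with replicate 3 lowest in both groups and inside the unstimulated range after LPS. Its log2 fold change was 1.34 ± 0.39 without the block (limma adjusted p = 0.818) and 1.34 ± 0.23 with it (0.00144). TNFSF13B, the B cell survival factor BAFF, rose with the block from 504 ± 52.8 to 1109 ± 171 (1.13 ± 0.08) and lay just outside the limit without it (limma adjusted p = 0.0102). IL1RN, the antagonist of the IL-1 receptor, rose with the block by 0.67 ± 0.09. IL23A (0.94) and VEGFA (0.33) were not called.

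IL6 had no read in the 8 WT libraries. A count of 0 allows up to 3 reads per library, which is 2.25 to 4.25 normalised counts over the 8 libraries and covers counting error only. IL10 had 2 and 3 reads in WT LPS replicates 1 and 3 and none elsewhere, and IL12B had 1 read in all 8 libraries together. CSF2, CSF3, LIF and IL36G had none. A response of these cytokines of a few reads was not detectable at this depth.

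**Figure D3:**
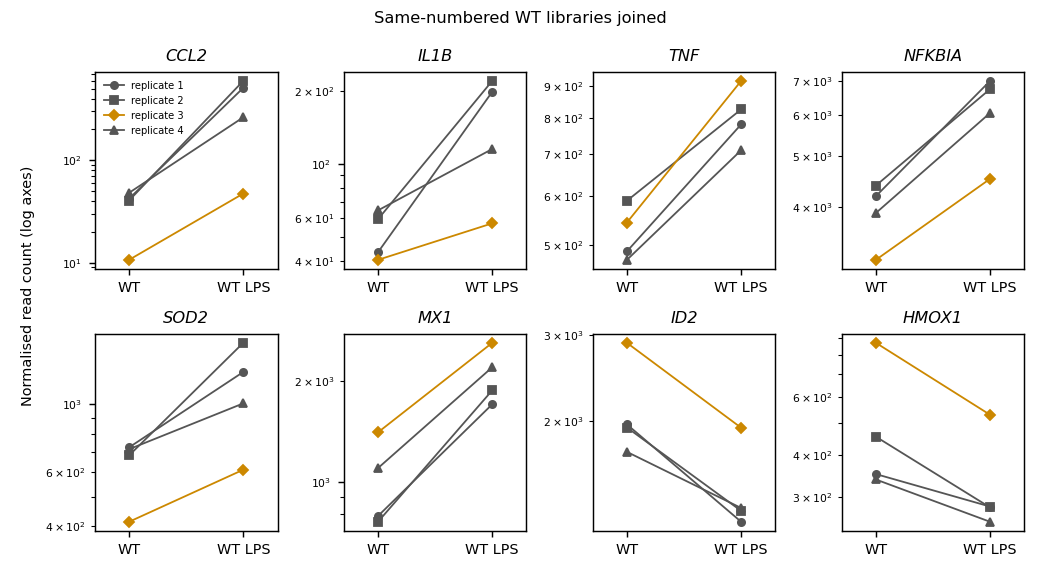
Normalised read counts (log axes) of 8 genes in WT and WT LPS libraries, the libraries of the same replicate number joined by a line and replicate 3 drawn in orange. The lines of CCL2, IL1B, TNF, NFKBIA, SOD2 and MX1 rise and those of ID2 and HMOX1 fall in all 4 pairs, while the groups overlap for CCL2, IL1B, SOD2, ID2 and HMOX1.

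For all 114 genes called higher with the block, LPS was above unstimulated in each of the 4 same-numbered pairs, which the block fit selects for. Over all genes tested this was so for 8.16%. The median log2 ratio of these genes was 0.85, 0.99, 0.83 and 0.77 in pairs 1, 2, 3 and 4. Pair 3 had the smallest ratio of the 4 for 38 of them and the largest for 24, and pair 4 had the smallest for 38 and the largest for 18. SOD2, the mitochondrial superoxide dismutase and an NF-κB target, shows the pattern. It had 723, 681, 414 and 714 normalised counts in WT and 1274, 1587, 612 and 1007 in WT LPS (0.77 ± 0.29 without and 0.77 ± 0.10 with the block, limma adjusted p = 2.50e-05 with it). PTGER4, the prostaglandin receptor EP4, had 262 in WT replicate 3 and 782 to 879.5 in the other WT libraries, and rose with the block by 0.42 ± 0.08 (limma adjusted p = 0.00429).

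Among the surface receptors, SLAMF7 rose. SLAMF7, a receptor of the SLAM family on activated leukocytes, had 13.6, 9.50, 12.8 and 9.93 normalised counts in WT and 111, 106, 61.5 and 61.5 in WT LPS (2.74 ± 0.28, limma adjusted p = 0.00271). With the block, TNFRSF9 or 4-1BB (1.84 ± 0.33) and the integrin ligand ICAM1 (1.38 ± 0.17) rose too, so that 3 of 11 tested genes of costimulation and adhesion were called. CD40 (0.56) and CD86 (-0.96) were not. CD86 had 16.3, 30.1, 16 and 20.7 in WT and 5.67, 14.7, 13.2 and 8.25 in WT LPS, non-overlapping and near the low end of the range tested. CD80, CD274 and CD69 had means below 10, CD69 with no read.

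The genes of LPS recognition were expressed at low levels. TLR4 had 9.93 to 31.7 normalised counts in WT and 8.25 to 18.7 in WT LPS, and LY96, the gene of MD-2, 5.79 to 19 and 6.59 to 15.5. CD14 had 54.3, 87.9, 90.4 and 82.8 in WT and 45.4, 55.6, 56 and 54 in WT LPS and was not called (-0.55 ± 0.21). None of the 19 tested genes of TLR4 sensing and signalling was called in either fit, and their median was 0.07. Of the 22 listed, TICAM2 and LBP had no read in the WT and WT LPS libraries and TLR5 had a mean below 10, so these were not tested. IRAK2 (1.13), a kinase of the MYD88 complex, had a mean of 7.19 in WT and 17.6 in WT LPS and was not called.

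Early response factors and terminators of signalling were called in small numbers. With the block, 3 of 20 immediate early and AP-1 genes rose: ATF3 (1.09 ± 0.18), JUN (0.90 ± 0.08) and IER5 (0.37 ± 0.07). FOS, at 85.7 and 80.3, was not called. Of 18 signal terminators, the ubiquitin ligase PELI1 (1.47 ± 0.23) and the ribonuclease ZC3H12A, or regnase-1 (0.78 ± 0.09), rose with the block, while ZFP36L1, which destabilises AU-rich transcripts, fell with it. ZFP36L1 had 88.2, 112, 85.1 and 115 normalised counts in WT and 45.4, 48.3, 13.2 and 51 in WT LPS (-1.48 ± 0.24, limma adjusted p = 9.44e-04 with and 0.530 without the block). SOCS3 had 12.2, 30.1, 8.51 and 35.6 in WT and 45.4, 67.1, 1.10 and 32.2 in WT LPS and was not called. Of 19 survival and apoptosis genes, 4 rose with the block: BIRC3, or cIAP2 (1.36 ± 0.12), PMAIP1, or NOXA (0.87 ± 0.10), TNFAIP8 (0.50) and CFLAR, or c-FLIP (0.45). The first and the last are inhibitors of apoptosis and PMAIP1 promotes it.

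Of 16 tested enzymes and carriers linked to LPS, 5 rose with the block. ACOD1, which makes itaconate from the citrate cycle intermediate cis-aconitate, had 1 read in the 4 unstimulated libraries together and 87 with LPS, or 21.3, 37.6, 14.3 and 9.75 normalised counts. The ratio was 86.5, with an exact 95% counting interval of 15.1 to 3456. This interval pools the libraries of a group and leaves out the spread between them, and WT LPS replicate 2 held 46 of the 87 reads. ACOD1 was called with the block (limma adjusted p = 0.00156). SOD2, given above, SAT1 (0.62), SLC2A6 (0.53) and the metallothionein MT2A (0.25) were the others. MT2A had the smallest log2 fold change of the genes called higher, at 6854 ± 315 in WT and 8157 ± 352 in WT LPS (SD, n = 4), with no overlap between the groups.

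Few genes were called lower. In bulk RNA, a smaller share of expressing cells and less RNA per cell cannot be told apart, for falls as for rises. All 9 were called with the block only, and for 3 of them the groups did not overlap. They were ZFP36L1, given above, and the genes PHF13, DNASE2, ID2, HMOX1, TWF2, CYP1B1, MT-ATP8 and CEBPA. ID2, an inhibitor of basic helix-loop-helix factors, fell from 1967, 1938, 2890.0 and 1728 normalised counts to 1242, 1308, 1936 and 1326 (-0.55 ± 0.07, limma adjusted p = 1.44e-05 with the block). Replicate 3 was highest in both groups. DNASE2, the lysosomal nuclease that degrades engulfed DNA, had 555, 466, 499.9 and 485 in WT and 364, 340.4, 297 and 363 in WT LPS (-0.56 ± 0.09). HMOX1, the heme-degrading enzyme, had 352, 455, 871 and 339 in WT and 281, 279, 529 and 253 in WT LPS (-0.54 ± 0.10). CEBPA, a myeloid differentiation factor, fell by 0.29 on the log2 scale and the mitochondrial subunit MT-ATP8, whose WT libraries ranged from 5169 to 16520.3, fell by 0.30. Beside MT-ATP8, the share of mitochondrial reads differed between replicate numbers, and its part in this result was not tested.

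Most metabolic lists and the cell cycle list held no called gene. None of the tested members was called in either fit among 20 glycolysis, 19 acetyl-CoA and citrate, 24 sterol synthesis, 10 fatty acid synthesis and 10 cholesterol efflux genes, 29 histone acetyltransferases, deacetylases and readers, and 36 cell cycle genes. The medians of these 7 lists were between -0.09 and 0.04. ACLY (ENSG00000131473, chromosome 17, 41866917 to 41930542 on the minus strand) had 111, 95.8, 86.2 and 91.9 normalised counts in WT and 111, 91.6, 116 and 96.0 in WT LPS (0.10 ± 0.16). A 3′ library counts the end of a transcript, and which share of the ACLY reads came from the vector is not known. FASN (0.12), ACSS2 (0.02) and ABCA1 (0.18) were not called, and ABCG1 had at most 5 reads in a library. LDHA (-0.04) and HK2 (-0.08) were not called. B2M, the β2-microglobulin gene, had 27150 ± 2927 and 25069 ± 6258 (-0.14 ± 0.17, SE). MHC class I had 1 call with the block among 17 genes, the peptide transporter TAP1 (0.37 ± 0.08), and MHC class II none among 9. The 8 S100 genes, all tested, had values below 0, with a median of -0.23, and none was called. Their median log2 ratio was -0.04, -0.05, -0.46 and -0.11 in pairs 1, 2, 3 and 4, lowest in the pair that stood apart. No gene was called either among 9 inflammasome, 10 coagulation, 10 granule protein, 16 unfolded protein response and 10 chemotactic receptor genes tested. Calls in the 3 remaining lists included HMOX1 among 11 NRF2 targets, PTGER4 among 8 prostaglandin genes, and CEBPA, which fell, among 24 monocyte genes, of which 1 rose.

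**Figure D4:**
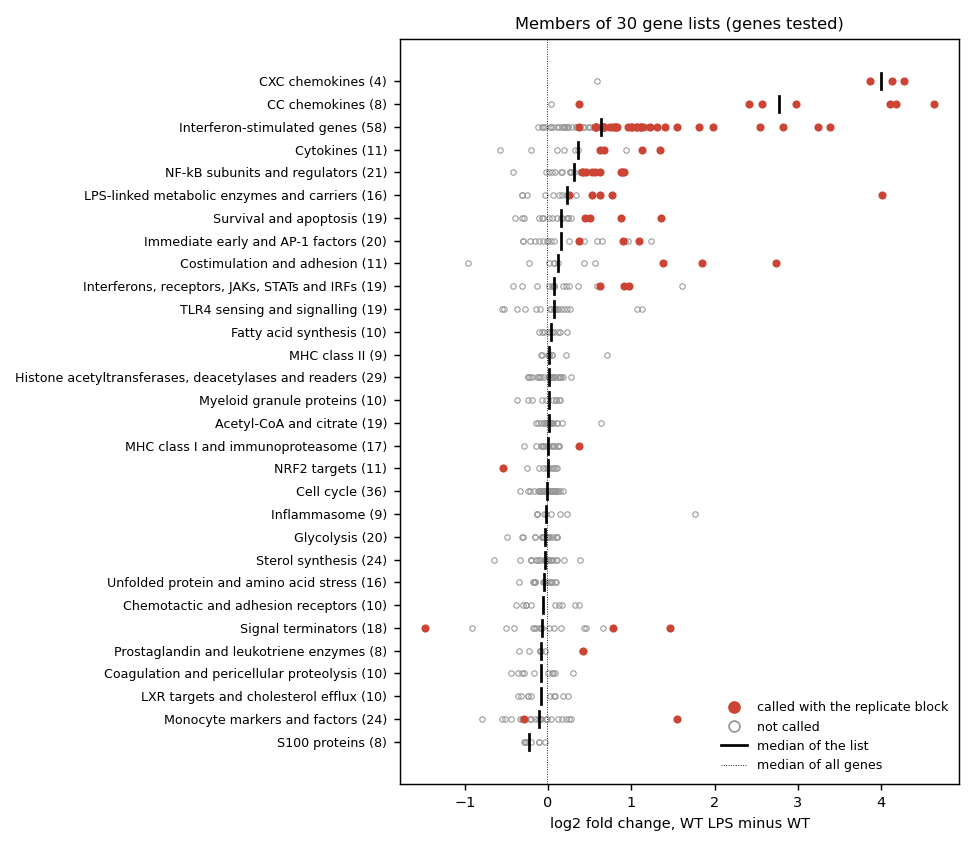
Log2 fold change, WT LPS minus WT, of each tested member of 30 gene lists (number tested in brackets), ordered by the median (bar). Filled red points passed the adjusted p of 0.01 with the replicate block, and 15 of the lists hold no such point.

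Genes outside the lists accounted for 43 of the 123 called with the block. Among those with the largest folds were BATF2 (2.11 ± 0.42), a leucine zipper factor of interferon responses, RGL1 (1.75 ± 0.22), TNFSF10, the death ligand TRAIL (1.73 ± 0.13), and VSNL1 (1.70 ± 0.31). TNFSF10 had 100.4, 90.2, 197 and 129 normalised counts in WT and 397, 385, 470.1 and 400.4 in WT LPS. The cytokine receptors IL7R (1.29 ± 0.24) and IL10RA (1.23 ± 0.11) and the histamine receptor HRH1 (1.16 ± 0.12) rose as well, all of these with the block. Less steep but abundant were ZNFX1 (846 to 1774), ZC3HAV1, the antiviral protein ZAP (1185 to 2146), and POU2F2 (3116 to 4306). These genes were named after their values were seen. By position, 29 of the 111 genes called higher with a known position lay in 12 groups of 2 to 4 with gaps of at most 100000 bases. Among them were GBP4 and GBP5, OAS1 and OAS2, MX1 and MX2, PARP9 and DTX3L, CMPK2 and RSAD2, and SAMD9 and SAMD9L, besides the chemokine and IFIT clusters given above. OAS3, in the stretch of OAS1 and OAS2, was tested and not called, as were ATG2A and PPP2R5B in that of EHD1 and BATF2. How often tested genes lie this close whether called or not was not counted, so no excess is read from these groups.

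The response of the WT line was set beside those of KO, HA and SA cells in a fit of all 32 libraries on a shared scale. HA and SA cells were made like WT cells, by transduction of the knockout, while no vector or selection is described for KO cells. In a comparison of KO with WT, ACLY thus cannot be told apart from the vector and the selection. In that fit 31 genes were called higher in WT (0.25% of the 12406 tested), 63 in KO (0.508%), 48 in HA (0.387%) and 58 in SA (0.468%). Of the 31, 29 were called in KO, which is 93.5% of the WT genes and 46.03% of the KO genes, 28 in HA (90.3% and 58.3%) and 30 in SA (96.8% and 51.7%). The difference of the response itself was called for 1 gene between KO and WT and for none between HA and WT or SA and WT (limma, adjusted p of 0.01). At an unadjusted p below 0.05 there were 175, 142 and 457 genes. Each count is less than a share of 0.05 of the genes tested, the average where no gene differs. The absence of calls in this fit thus does not show that the lines respond alike. The gene called was CCL5, whose level on the shared scale went from 1122 ± 155 to 1445 ± 124 in WT and from 799 ± 63.2 to 2733 ± 327 in KO (SD, n = 4). The LPS response was larger in KO by 1.40 ± 0.20 on the log2 scale (limma adjusted p = 0.00158). The log2 fold change of CCL5 was 0.37 in WT, 1.77 in KO, 0.92 in HA and 0.75 in SA. A further fit, over the WT and KO libraries only, held the replicate number as a block within each line. In it 4 genes differed between KO and WT: CCL5, CCL3L1 (1.36 ± 0.18), PTGER4 (1.28 ± 0.18) and MX1 (-0.91 ± 0.13). The last 3 had a limma adjusted p of 0.00907 each. MX1 stood at 1068 in WT and 7533 in KO without LPS, and at 2217 and 8375 with it.

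Levels before and after LPS differed between the lines for genes whose folds were not called different. CXCL10 rose by 3.87 in WT, from 108 to 1512 on the shared scale, and by 3.63 in KO, from 1259 to 14954. The difference of -0.25 ± 0.61 was small against its error. IFIT1 rose by 2.83 in WT and 1.57 in KO, a difference of -1.26 ± 0.46 that was not called without the block and had a limma adjusted p of 0.0394 with it. IL6 had no read in the 8 WT and 8 HA libraries and 4.77 ± 7.19 normalised counts in KO LPS. A missed threshold does not show that 2 lines respond alike.

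**Figure D5:**
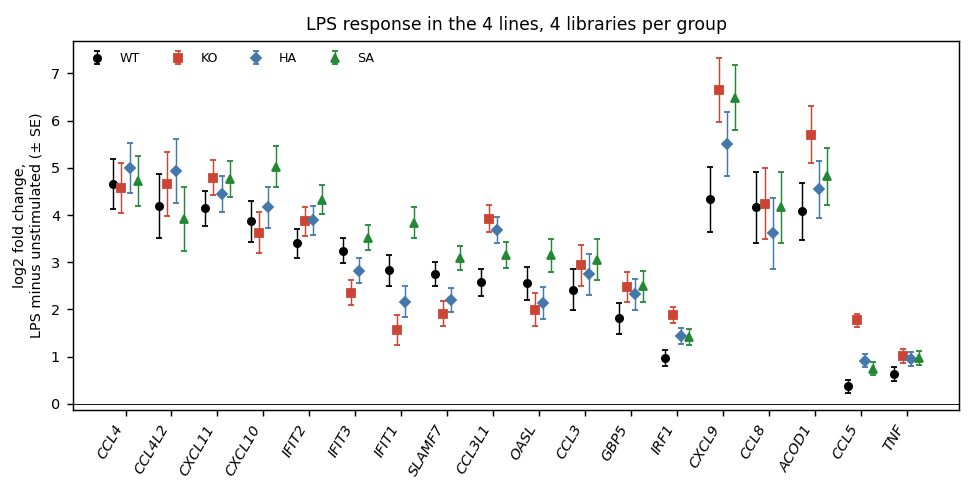
Log2 fold change (LPS minus unstimulated, ± SE) in the fit of all 32 libraries for 13 of the 14 genes called in WT and for CXCL9, CCL8, ACOD1, CCL5 and TNF, by line (WT black, KO red, HA blue, SA green). The CCL5 value of WT, 0.37, lies below that of KO, 1.77, and this is the difference that was called.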

How the data were processed

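RNA of THP-1 cells was sequenced with the QuantSeq 3′ kit, which reads transcript ends. Per the methods and labels, the authors used Bbduk for trimming, STAR for mapping (GRCh38), HTSeq-count for counting and DESeq2 for testing, versions and annotation not being given in the sources used here. The deposited values are normalized counts per gene, 1 table per line and treatment. In all libraries 100.000% of the values were whole multiples of 1 number within 0.05 reads, so reads were recovered, and the deposited scale was found to be a median-of-ratios scale set within each line. The labels and not the treatment paragraph of the methods (a lower LPS dose) were followed. 92 spike-in rows and no sample column were left out.

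WT and WT LPS libraries, grouped by label, were compared with limma 3.58.1 (R 4.3.3) on log2(count + 1) with a trend, two-sided, for genes with a mean of at least 10, and called at a Benjamini-Hochberg adjusted p of 0.01. The replicate numbers come from the labels. Deviations of same-numbered libraries from their group means correlated at 0.382, 0.453, 0.70 and 0.283 over the genes tested. Each library correlated best with its own number, by a clear margin for replicate 3. The margin was small elsewhere: with WT LPS replicate 2, WT replicate 4 correlated at 0.279 and WT replicate 1 at 0.341. The numbers were taken as pairs, and the fit with the block is given beside the other. Differences between lines were fitted over 32 libraries without a block. With a block, only the libraries of WT and of the line compared were fitted. The median-of-ratios factors were taken over all 32 libraries in each case. The fits were also run on simulated counts in which no replicate number stood apart. For the difference between lines, the simulated replicates shared no effect. These settings differ from the data, so the runs do not measure how the fits behave on these libraries. Reads without molecular identifiers are not independent molecules. At a mean of 10 counts, counting error is large.

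Genes were named by rule (the genes of the study's text, ACLY, B2M, the largest rises and gains, the first genes and the top calls of each list, calls between lines); genes called with the block only were added after their values were seen. The members, the 30 gene lists and the markers were chosen with earlier results of these data known. Of 602 listed symbols 601 were found. Positions are those of GENCODE 44 on GRCh38. Results of 4 named genes are not reported here.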

Additional observations from a re-analysis of the deposited data

Results flagged for a closer look

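For the named genes, 322 groups of 4 libraries were looked at for a library far from the other 3, by the gap to the nearest as a share of the range. The gap is weighed against the range only, so a small difference in level can qualify where the other 3 lie close together. In 32 of them 1 library stood apart, and chance alone gives about 1 in 20 groups. Of the 32, 16 were WT replicate 3 and 10 WT LPS replicate 3. Values are normalised read counts.

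WT replicate 3 stood above the other unstimulated libraries in CIITA (20.2, the others 6.79 to 8.28), ELANE (7074, the others 4042 to 4222), S100A9 (35415, the others 21142 to 23544) and, by a small difference in level, HSPA5 (16893, the others 15503 to 15579). The same held for TNFAIP3 (655, the others 423 to 454), IL1RN (516, the others 247 to 283), TRIM56 (344, the others 204 to 212) and PARP9 (329.7, the others 251 to 262). The same held for SP110 (889, the others 631 to 659.6) and ZCCHC2 (609, the others 392 to 425). WT replicate 3 was far below them in CASP1 (115, the others 295 to 320.3), SOD2 (414, the others 681 to 723), HK2 (7.45, the others 61.1 to 68.9) and S100A8 (13735, the others 22215 to 23818). The same held for IRF7 (69.1, the others 165 to 179.6) and PTGER4 (262, the others 782 to 879.5).

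WT LPS replicate 3 was far above the other LPS libraries in CCL3 (613, the others 316 to 355), CSF1R (596, the others 288 to 316), HMOX1 (529, the others 253 to 281) and IL1RN (779.9, the others 422 to 452). The same held for TRIM56 (550.3, the others 295 to 337), RELB (1910.2, the others 1159 to 1279), EHD1 (1347, the others 806 to 847) and ID2 (1936, the others 1242 to 1326). WT LPS replicate 3 was far below them in HELZ2 (247, the others 386 to 403) and ZFP36L1 (13.2, the others 45.4 to 50.98).

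WT replicate 4 stood above the rest in GBP1 (35.6, the others 16.6 to 17.6), EPSTI1 (221, the others 172 to 179) and CXCL9 (10.8, no read in the others). WT replicate 1 stood above the rest in DTX3L (1126, the others 969 to 989.6). WT replicate 2 stood above the rest in PTGS2 (30.9, the others 19.9 to 21.7). WT LPS replicate 2 lay below the rest in CXCL11 (193, the others 213 to 216).

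The LPS response of CCL5 differed between KO and WT cells by 1.40 ± 0.20 on the log2 scale (limma adjusted p = 0.00158), with the KO line showing the larger rise, in a design of 1 line for each genotype. As described by the authors, the vector and the selection also set WT apart from KO cells.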

How the results depend on the processing

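The number of genes called for the WT LPS response, 14, was 123 with the replicate block, and 31 when all 32 libraries shared 1 estimate of the spread. It was 14 with a pseudocount of 0.5, 15 with 5, 16 without the filter and 12 at a mean of at least 50, and 14 on the trimmed mean of M-values scale (IRF1 lost) and on the scale shared by all libraries. Leaving out 1 library gave 7 to 20. Further settings were chosen after seeing the data: the total-read scale gave 14, voom on recovered reads 13 (SLAMF7 and CCL3 lost) and 132 with the replicate block, the block without the filter 71, and leaving out both replicate 3 libraries 58, or 110 with the block. None of the 14 turned its direction in any of these. Why the counts moved was not tested. For the difference between KO and WT, 1 gene was called in the main analysis and in each of the 16 runs that left out 1 library. With the WT and KO libraries only and 1 block shared by both lines, 1 gene was called. With these libraries and a replicate block within each line, a setting added after seeing the data, 4 were called. For HA and SA the count was 0 in every setting run, with 945 and 792 genes at an unadjusted p below 0.05 under the block within each line. The planned edgeR and DESeq2 alternatives were not run. The model of recovered reads that was run is voom. With 6504099 to 12417589 reads per library, genes of a few reads, IL6 and IFNB1 among them, could not be compared.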
